A study of Rattus norvegicus with 13 samples.

Results

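Cytosolic ribosomal protein genes were followed in cultured rat skin precursors and mesenchymal stromal cells. The members were chosen by name, as the genes whose array symbol is that of a large subunit protein (Rpl or Rplp with a number) or of a small subunit protein (Rps with a number, or Rpsa). Mitochondrial ribosomal proteins and ribosomal protein kinases carry other symbols and stayed out. This gave 71 genes of 14506 measured, 44 of the large and 27 of the small subunit. All 71 lay above the background level used here, 3.83 on the log2 scale, and 69 symbols had a RefSeq gene of the same name.

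The cytosolic ribosome is built from a small subunit, which reads the messenger RNA, and a large subunit, which joins the amino acids. A ribosome needs nearly all of its proteins in equal amounts, and cells tend to make the messenger RNAs of these genes in parallel. Most of these messages start with a C followed by a run of pyrimidines, the terminal oligopyrimidine tract, through which the mTOR pathway controls their translation. Growing and dividing cells make many ribosomes, and mutations in single ribosomal protein genes cause tissue-specific disease in humans, such as Diamond-Blackfan anaemia.

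RNA came from cells of adult Sprague Dawley rats in culture, all passaged 2 times. Skin-derived precursors (SKPs), dermal cells that grow as spheres and have neural crest-like properties, came from dorsal trunk, ventral trunk or facial skin, with 3 independent isolates of each. Mesenchymal stromal cells (MSCs), an adherent connective tissue cell type, were represented by 4 isolates. Each isolate was hybridised to an Affymetrix Rat Gene 1.0 ST array, which gave 13 arrays in 4 groups. No group carried a treatment or an altered allele, and the tissue of origin of the MSCs, the sex of the animals and any pooling of animals are unknown from the labels. Levels are log2 values, a difference of 1 is a doubling, and only values of the same gene are compared between arrays.

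The SKP markers set 1 array apart, while the stromal markers did not set the MSCs apart from the SKPs. The mean of 8 SKP markers was between 7.90 and 8.52 on the other 8 SKP arrays and between 6.73 and 7.05 in MSCs, but 6.71 on dorsal array 3. The cell cycle genes were also lowest there, with a mean of 5.27 over 18 genes against 7.49 and 7.01 on the other dorsal arrays. Over 18 genes of hypoxia and glycolysis, dorsal array 3 had a mean of 9.98 and the other dorsal arrays 8.67 and 8.73. Of the 8 SKP markers, 5 were called higher and 1 lower in SKPs than in MSCs, against 13.1% and 12.2% of all genes. In dorsal SKPs 4 of the 8 lay above MSCs. The mean of 7 stromal markers was 9.06 in MSCs, 8.87 in dorsal, 9.33 in ventral and 10.34 in facial SKPs. Of these 7, 2 were called higher and 1 lower in SKPs than in MSCs. The mean of 20 macrophage and leukocyte markers ran from 6.24 to 9.98 on facial arrays, from 4.12 to 7.07 on dorsal, from 5.17 to 5.47 on ventral and from 4.06 to 4.68 on MSC arrays. Endothelial markers (6 genes) had means of 4.96 to 5.54 on ventral arrays and of 3.52 to 4.21 on all others, and 5 of the 6 were called higher in ventral SKPs than in MSCs. Pecam1, Emcn and Kdr, which define endothelium, lay between 4.57 and 6.65 on the ventral arrays. Keratinocyte markers (5 genes) stayed at means of 3.49 to 3.84 in all groups, close to the background level. The part of these other cells in the results below was not tested, apart from a fit with the leukocyte marker mean as a covariate.

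Within dorsal SKPs and within MSCs, most of the 71 genes moved together from array to array. Their mean level was 10.73, 10.46 and 10.98 in dorsal SKPs, 10.47, 10.46 and 10.50 in facial SKPs, 10.52, 10.51 and 10.44 in ventral SKPs, and 10.66, 10.79, 10.40 and 10.56 in MSCs. Dorsal array 3 and MSC array 2 were thus the high ones and MSC array 3 the low one, and the ranges of the 4 groups overlapped. Among the MSCs, array 2 was highest for 65 of the 71 genes (91.5%, against 25.5% of all genes) and array 3 lowest for 62 (87.3%, against 31.7%). In dorsal SKPs, array 3 was highest for 58 genes (81.7%, against 36.6% of all genes) and array 2 lowest for 54 (76.1%, against 30.4%). The difference between dorsal array 3 and the mean of the other dorsal arrays had a median of 0.42 over the 71 genes and of 0.00 over all genes.

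**Figure D1:**
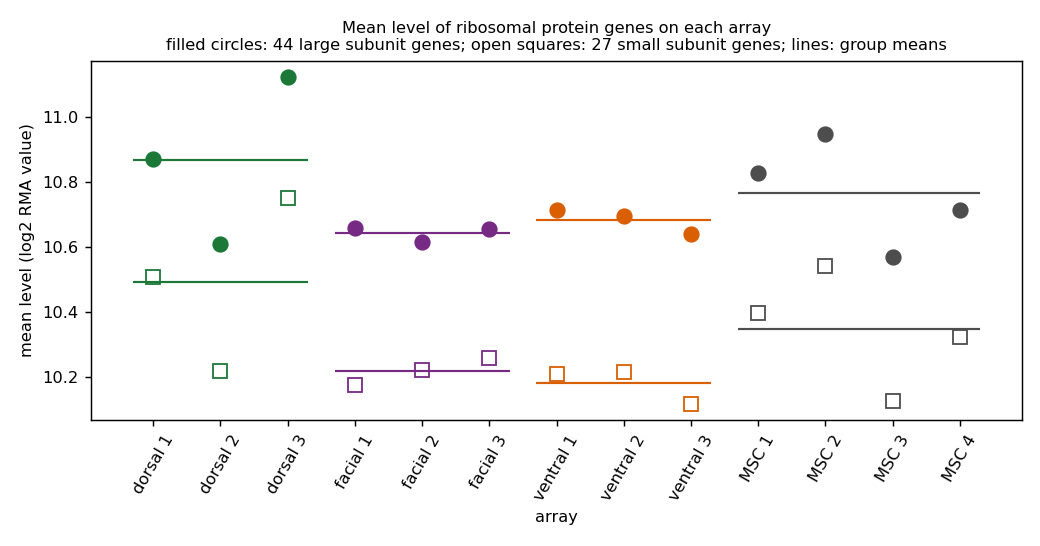
Mean log2 level of the 44 large subunit genes (filled circles) and the 27 small subunit genes (open squares) on each of the 13 arrays, with horizontal lines at the group means. Within dorsal SKPs and within MSCs both subunits shift in parallel between arrays, with dorsal array 3 highest (11.12 large, 10.75 small). The spread is wider in these groups than in facial and ventral SKPs. The heights of the 2 sets are not to be compared, since they come from different probe sets.

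The spread within groups differed between the groups. The median SD of the 71 genes was 0.31 in dorsal SKPs, where all genes had 0.20, and 0.17 in MSCs, where all genes had 0.19. It was 0.07 in facial SKPs (all genes 0.15) and 0.08 in ventral SKPs (all genes 0.12), so that the family was tighter than the typical gene there. Within dorsal SKPs the SD ran from 0.08 for Rps9 to 0.87 for Rpl22l1, a paralog of Rpl22, whose value of 7.38 on dorsal array 1 stood above those of the others, the lower of which was 5.77. In facial SKPs the highest SD was 0.24 (Rps27) and in ventral SKPs 0.25 (Rpl19). In MSCs it was lowest for Rps29 (0.05) and highest for Rps4y2 (0.45).

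**Figure D2:**
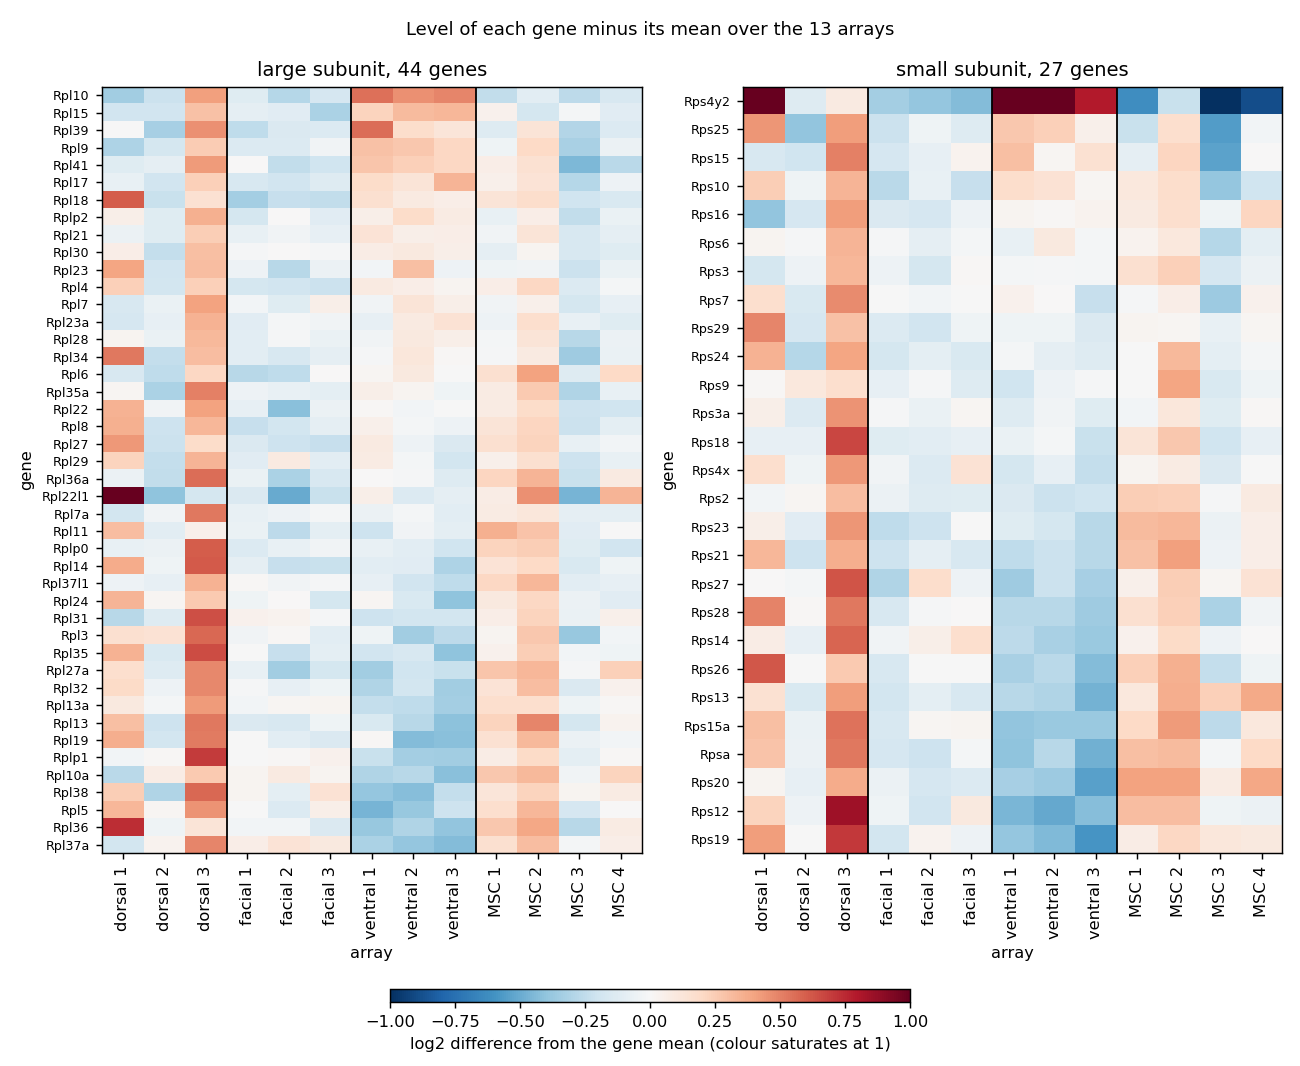
Log2 level of each of the 44 large subunit genes (left) and 27 small subunit genes (right) minus its own mean over the 13 arrays. Arrays are in columns, and genes are ordered by the mean of these centred values on the ventral arrays. Red columns mark dorsal array 3 and MSC array 2, and the ventral columns run from red at the top (Rpl10, Rps4y2) to blue at the bottom (Rpl37a, Rps19).

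Few ribosomal protein genes differed between SKPs and MSCs. In limma's fit, where a gene was called when its p, adjusted after Benjamini and Hochberg across the 14506 genes, was below 0.05, 3 of the 71 were called (4.23%), while 25.3% of all genes were. Rps4y2 rose in SKPs, Rps20 and Rps13 fell, and no large subunit gene was called. The median log2 difference was -0.04 over the large and -0.07 over the small subunit genes, beside -0.02 over all genes; both medians crossed 0 under some alternatives, with ranges of -0.17 to 0.09 and of -0.20 to 0.03. Differences were also small in size, with a median absolute value of 0.11 against 0.18 over all genes, and only Rps4y2 (1.41% of the members, against 9.66% of all genes) reached an absolute difference of 1. For none of the 71 genes did the 9 SKP arrays and the 4 MSC arrays lie apart without overlap, which 12.6% of all genes did. In such bulk cultures, fewer cells of a type and less RNA per cell cannot be told apart.

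Rps4y2, a small subunit gene named after a human copy of RPS4 on the Y chromosome and annotated in the rat on chromosome 4, had the largest difference of the 71. Ventral arrays read 7.74, 7.80 and 7.44, dorsal arrays 7.85, 6.52 and 6.74, facial arrays 6.31, 6.26 and 6.22, and MSC arrays 6.03, 6.43, 5.36 and 5.76. The ventral arrays and dorsal array 1 were high, and the facial arrays overlapped the MSCs. SKPs exceeded MSCs by 1.09 (SE 0.23, adjusted p = 0.00481). Dorsal SKPs exceeded them by 1.14 (SE 0.30, adjusted p = 0.0215), and ventral SKPs by 1.76 (SE 0.30, adjusted p = 0.00119), a fold of 3.40. Facial SKPs did not pass, at 0.37 (SE 0.30, adjusted p = 0.457), and lay 1.40 below ventral SKPs (SE 0.32, adjusted p = 0.0240). The dorsal call was lost without dorsal array 1 (difference 0.73, adjusted p = 0.0631), without MSC array 3 (0.96, 0.0509) or without MSC array 4 (1.09, 0.0537). These comparisons share the MSC arrays or the ventral arrays and are not independent of each other.

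Rps20 and Rps13, which sit in the small subunit, were the genes called lower in SKPs. Rps20 had levels of 12.73, 12.73, 12.40 and 12.71 on the MSC arrays, 12.35, 12.24 and 12.70 on the dorsal arrays, 12.26, 12.16 and 12.19 on the facial arrays and 11.99, 11.96 and 11.78 on the ventral arrays. Apart from dorsal array 3, all SKP arrays lay below all MSC arrays. The difference was -0.46 between SKPs and MSCs (SE 0.10, adjusted p = 0.00469), -0.44 for facial SKPs (SE 0.13, adjusted p = 0.0295) and -0.73 for ventral SKPs (SE 0.13, adjusted p = 0.00131). Rps13 measured 8.42, 8.68, 8.55 and 8.70 on the MSC arrays, 8.47, 8.16 and 8.73 on the dorsal, 8.13, 8.21 and 8.16 on the facial and 8.04, 8.01 and 7.84 on the ventral arrays. Here dorsal array 1 lay within the MSC range, dorsal array 3 just above it and the other SKP arrays below it. Its differences were -0.39 (SE 0.10, adjusted p = 0.0136) for all SKPs, -0.42 (SE 0.13, adjusted p = 0.0405) for facial and -0.62 (SE 0.13, adjusted p = 0.00415) for ventral SKPs. Dorsal SKPs passed for neither, at -0.21 (adjusted p = 0.304) and -0.13 (adjusted p = 0.563). The Rps13 call over all SKPs was lost without MSC array 4 (-0.35, adjusted p = 0.0509), and with the leukocyte markers as a covariate all 3 calls were (adjusted p = 0.105 for Rps4y2, 0.0691 for Rps20 and 0.149 for Rps13). With this covariate, 16.5% of all genes were called.

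The count of calls between SKPs and MSCs depended on single arrays. Without dorsal array 3 it was 11, with 2 higher and 9 lower, when 27.7% of all genes were called. Without MSC array 3 it was 6, with 1 higher and 5 lower, when 22.7% of all genes were called. Rpl10a and Rpsa were among the genes gained in both cases, at -0.32 and -0.33 without dorsal array 3 (adjusted p = 0.0221 and 0.0225). Over all arrays they stood at -0.28 (adjusted p = 0.0621) and -0.29 (adjusted p = 0.0756).

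Among genes of known special roles in the ribosome, the following differed by between -0.19 and 0.23 between SKPs and MSCs, and none of them was called. The stalk proteins, which bring elongation factors to the ribosome, had differences of -0.06 (Rplp0, SE 0.13), -0.06 (Rplp1, SE 0.12) and 0.12 (Rplp2, SE 0.09). Rpl5 and Rpl11, which bind the p53 regulator Mdm2 when ribosome assembly fails, had -0.12 (SE 0.11) and -0.19 (SE 0.11). Rpl3 and Rpl4, which reach towards the catalytic centre, had 0.04 (SE 0.12) and -0.04 (SE 0.09). Rpl38, needed in the mouse for translation of Hox messages, had -0.17 (SE 0.13), and Rpl39, a protein of the exit tunnel, 0.16 (SE 0.14). On the small subunit, Rps6, the target of S6 kinase, had 0.09 (SE 0.09) and Rps3, which lines the entry of the messenger RNA, had -0.06 (SE 0.11). Rps19, the gene most often mutated in Diamond-Blackfan anaemia, had -0.18 (SE 0.11), Rps14 -0.07 (SE 0.11), Rps25 0.23 (SE 0.17) and Rps27 -0.17 (SE 0.13). Rpl10, Rpl10a and Rpsa, from the same set of roles, lay outside that range at 0.28, -0.28 and -0.29 and were not called either. Rpl10 (adjusted p = 0.116) gained a call without dorsal array 1 (0.33, adjusted p = 0.0465) or dorsal array 3 (0.20, adjusted p = 0.0479). A missed threshold does not show equality, and the median SE over the 71 genes was 0.11.

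**Figure D3:**
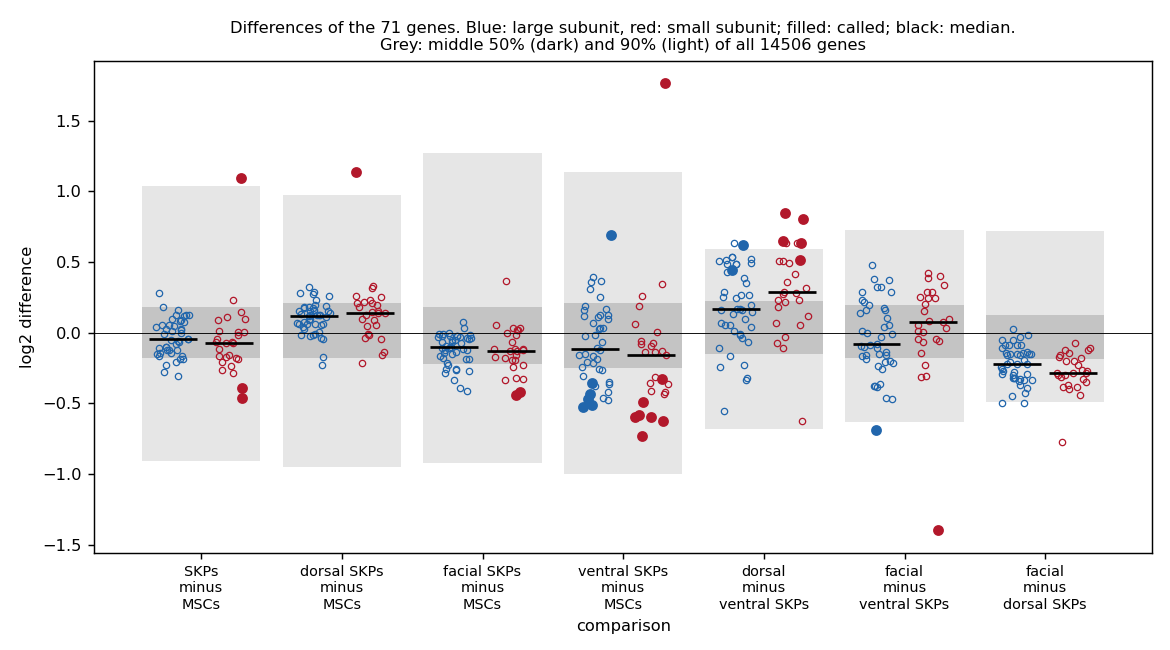
Log2 differences of the 44 large subunit genes (blue) and 27 small subunit genes (red) in 7 comparisons, with filled points for called genes, black bars at the medians, and grey bands for the middle 50% and 90% of all 14506 genes. Of the 497 points, 16 lie outside the wider band, 8 of them between dorsal and ventral SKPs (led by Rps19 and Rps12); Rps4y2 is outside in 5 comparisons, at 1.09, 1.14, 1.76, -1.40 and -0.77, and called points are most numerous between ventral SKPs and MSCs.

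More ribosomal protein genes were called between ventral SKPs and MSCs than in the other 6 comparisons. Of the 71 genes 14 were called (19.7%), 2 higher and 12 lower, while 24.4% of all genes were called, 13% higher and 11.4% lower. The called share was thus not above that of the array as a whole. By subunit, 5 large and 7 small subunit genes fell, while Rpl10 and Rps4y2 rose. Arrays of both groups lay apart without overlap for 23 genes that were lower (18.4% of all genes) and 6 that were higher (19.5% of all genes). The 6 were Rpl10, Rpl15, Rpl30, Rpl41, Rpl9 and Rps4y2. Medians were -0.12 for the large and -0.16 for the small subunit, beside -0.04 over all genes. Endothelial markers differed between these groups as given above, and their part was not tested.

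Rpl10, a large subunit protein that joins late in assembly and closes the subunit for use, was the large subunit gene called higher. Its level was 12.37, 12.27 and 12.31 in ventral SKPs, 11.57, 11.71, 11.55 and 11.66 in MSCs, 11.70, 11.53 and 11.64 in facial and 11.47, 11.60 and 12.23 in dorsal SKPs. All ventral arrays lay above all 10 others, of which dorsal array 3 came closest. The difference from MSCs was 0.69 (SE 0.15, adjusted p = 0.0058), a fold of 1.62, and its other probe set gave 0.59. Facial SKPs lay 0.69 below ventral SKPs (SE 0.16, adjusted p = 0.0272), and dorsal SKPs 0.55 below without passing (SE 0.16, adjusted p = 0.0699).

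Among the genes that fell in ventral SKPs against MSCs, the small subunit led. After Rps20 and Rps13 came Rps12, with levels of 9.11, 9.06 and 9.14 in ventral SKPs and of 9.88, 9.88, 9.53 and 9.51 in MSCs, a difference of -0.59 (SE 0.19, adjusted p = 0.0358). Rps19 measured 8.16, 8.11 and 7.96 against 8.62, 8.76, 8.66 and 8.65 in MSCs, a difference of -0.59 (SE 0.14, adjusted p = 0.00983). Rpsa, a small subunit protein also known as a laminin receptor, measured 11.12, 11.25 and 11.04 against 11.83, 11.84, 11.50 and 11.73, a difference of -0.58 (SE 0.14, adjusted p = 0.00895). In all of these the ventral arrays lay below every MSC array. Rps15a (-0.49, adjusted p = 0.0496) and Rps2 (-0.33, adjusted p = 0.0359), a protein at the entry of the messenger RNA, completed the small subunit. On the large subunit the called genes were Rpl10a, a protein of the mobile L1 stalk (-0.53, adjusted p = 0.0106), Rpl37a (-0.51, adjusted p = 0.0206), Rpl27a (-0.47, adjusted p = 0.0313), Rpl5 (-0.44, adjusted p = 0.0386) and Rpl13a (-0.35, adjusted p = 0.0366), which in human cells also serves to silence inflammatory messages. Of these 14 calls, those of Rps4y2, Rpl10, Rps20, Rps13, Rps19, Rpsa and Rpl10a were kept in all 13 fits that left out 1 array. The others were lost in between 3 (Rpl37a) and 10 (Rps15a) of them.

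The number of calls between ventral SKPs and MSCs ran from 7 to 23 when 1 array was left out. It rose to 23 without dorsal array 3, with 3 higher and 20 lower, when 28.1% of all genes were called. Leaving out MSC array 1, 2 or 4 lowered it to 8, 7 and 9 (22.2%, 22.1% and 21.9% of all genes). Leaving out ventral array 1, 2 or 3 lowered it to 8, 7 and 8 (17.5%, 18.3% and 17.7% of all genes). When the arrays were centred on the mean of the 71 genes, which removes the shift they share, 16 were called, 8 higher and 8 lower. This last alternative was chosen after seeing the data. It leaves the 71 genes with no mean difference between groups, so by construction it draws the calls towards an even split. The share of all genes called under this centring is not given here, so the 16 cannot be set against it.

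**Figure D4:**
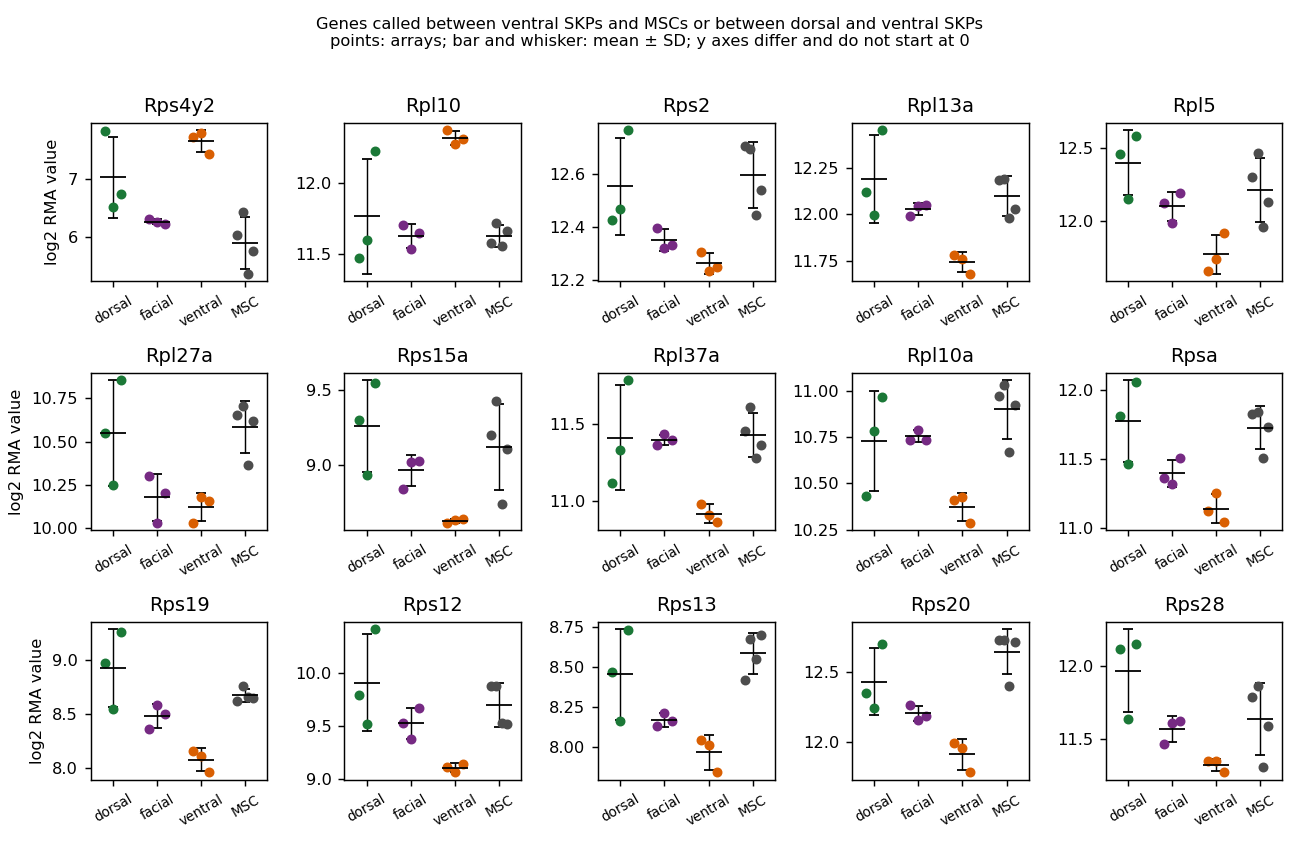
Log2 level of the 15 genes called between ventral SKPs and MSCs or between dorsal and ventral SKPs, with 1 point per array, bars at the group mean and whiskers of 1 SD (3 arrays per SKP region, 4 for MSCs; the y axes differ and do not start at 0). Rps4y2 and Rpl10 are high in ventral SKPs, where Rps4y2 on dorsal array 1 reaches the same level, and the other genes are lowest or among the lowest there.

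Set against all 10 other arrays, the ventral arrays were lower for 17 of the 71 genes (23.9%), which held for 4.05% of all genes, and higher for 1, Rpl10 (1.41%), which held for 5.76%. The 17 were 10 of the 27 small subunit genes (Rps2, Rps12, Rps13, Rps14, Rps15a, Rps19, Rps20, Rps21, Rps26 and Rpsa) and 7 of the 44 large subunit genes (Rpl5, Rpl10a, Rpl13a, Rpl32, Rpl36, Rpl37a and Rplp1). No test was made of this share, since the genes shift together and are not independent. By group means, dorsal SKPs were highest for 44 genes (62.0%, against 25.1% of all genes), MSCs for 14 and ventral SKPs for 13, and facial SKPs for none. Lowest were ventral SKPs for 35 genes (49.3%, against 32.3%), facial SKPs for 28 (39.4%, against 24.4%) and MSCs for 8. Without dorsal array 3, dorsal SKPs were highest for 22 genes, MSCs for 30, ventral SKPs for 18 and facial SKPs for 1, and ventral SKPs were lowest for 33.

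Between dorsal and ventral SKPs, 7 genes were called higher in dorsal and none lower, 9.86% of the 71 against 6.11% of all genes (2.35% higher, 3.76% lower). Rps19 led, with 8.97, 8.54 and 9.26 in dorsal against 8.16, 8.11 and 7.96 in ventral SKPs, a difference of 0.85 (SE 0.15, adjusted p = 0.0093). Rps12 measured 9.79, 9.52 and 10.41 in dorsal against 9.11, 9.06 and 9.14 in ventral SKPs, a difference of 0.80 (SE 0.20, adjusted p = 0.0353). Both groups stayed apart for these genes, with dorsal array 3 the highest. Rps28 (0.65), Rpsa (0.64), Rpl5 (0.62), Rps20 (0.52) and Rpl13a (0.45) followed, with adjusted p between 0.0266 for Rpsa and 0.0486 for Rpl13a. Arrays lay apart without overlap for 28 genes that were higher in dorsal SKPs (15.4% of all genes) and for 1 that was lower, Rpl10 (13.4% of all genes). The medians were 0.17 for the large and 0.29 for the small subunit, beside 0.05 over all genes. They became -0.06 and 0.05 when the shared shift was removed. That step leaves the 71 genes with no mean difference between groups, so small medians follow from it by construction.

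The dorsal calls rested on few arrays. Without dorsal array 3 there were 3 calls, 1 higher (Rps19) and 2 lower, Rpl10 and Rpl15, when 6.20% of all genes were called. Leaving out dorsal array 2 gave 20, all higher (5.45% of all genes called). Leaving out ventral array 1, 2 or 3 gave 1, Rps19 (2.30%, 3.21% and 2.25% of all genes). Without facial arrays 1, 2 or 3 there were 3, 4 and 4 calls (5.23%, 5.20% and 5.63% of all genes), and without MSC array 4 there were 4 (5.64%). Rps19 kept its call in each of the 13 fits that left out 1 array and lost it where the fit held dorsal and ventral arrays only (adjusted p = 0.0775).

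Facial SKPs had 2 called genes against each of MSCs and ventral SKPs. Against MSCs these were Rps20 and Rps13 (2.82%, against 19.0% of all genes) and against ventral SKPs Rps4y2 and Rpl10 (6.6% of all genes). Each of these calls was lost in between 6 and 9 of the 13 fits that left out 1 array, with 0 to 3 calls against MSCs and 0 to 5 against ventral SKPs. No call remained without any 1 of the facial arrays, nor against MSCs without MSC arrays 2 or 4, nor against ventral SKPs without any 1 of the ventral arrays. Without a facial array, 13.1% to 14.8% of all genes were called against MSCs and 3.55% to 4.94% against ventral SKPs. Without MSC array 2 or 4 the share against MSCs was 16.0% and 15.0%. Without a ventral array the share against ventral SKPs was 2.69% to 3.30%. Without dorsal array 3 there were 5 member calls against ventral SKPs, when 9.76% of all genes were called. Against MSCs, 11 genes were lower with no overlap, close to the 15.6% of all genes. Against ventral SKPs, 21 genes were higher without overlap (16.8% of all genes) and 20 lower (19.6%), so that the family split in 2 directions, with Rps12, Rps19 and Rpl37a among the former and Rpl15, Rpl41 and Rps25 among the latter. The leukocyte marker mean was highest in facial SKPs as a group, although dorsal array 1 (7.07) exceeded facial array 2 (6.24). With it as a covariate, no member was called against MSCs, where 5.42% of all genes were. Against ventral SKPs 1 member was called, where 1.95% of all genes were. The share over all genes thus fell as well.

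Facial and dorsal SKPs gave no call among the 71 genes, where 1.25% of all genes were called. At an unadjusted p under 0.05 there were 12 (16.9%), against 14.5% of all genes. The difference was below 0 for 70 of the 71, with medians of -0.22 for the large and -0.28 for the small subunit beside -0.04 over all genes. The size of these medians depended on dorsal array 3: without it they were -0.04 and -0.13, still below 0. With the shared shift removed they were 0.02 and -0.04. That removal leaves the 71 genes with no mean difference between groups, so medians near 0 follow from it by construction. Without dorsal array 2, on which most of the members were lowest, 3 members were called, all lower in facial SKPs, when 1.78% of all genes were called. For 10 genes the arrays lay apart, all lower in facial SKPs (10.3% of all genes).

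Dorsal SKPs and MSCs differed for Rps4y2 alone, 1.41% of the members against 16.5% of all genes. The medians of 0.12 and 0.14 for large and small subunit, beside 0.01 over all genes, turned to -0.03 and -0.04 without dorsal array 3. Without dorsal array 2 there were 9 calls, all higher in dorsal SKPs, when 15.1% of all genes were called. Without dorsal array 3 there were 2, 1 in each direction (15.5% of all genes). No member call was left without dorsal array 1 or MSC arrays 3 or 4 (15.0%, 15.7% and 13.2% of all genes).

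Paralog pairs were compared within each array, as the level of the copy minus that of the main gene, for the 3 of 10 listed pairs that were measured. Rps4y2 minus Rps4x was higher in SKPs than in MSCs by 1.08 (exact permutation test over the 715 splits of the arrays, two-sided, p = 0.00839, adjusted over the 3 pairs 0.0252). By group this difference was -4.68 ± 0.13 for ventral, -5.66 ± 0.73 for dorsal and -6.23 ± 0.18 for facial SKPs (SD, n = 3 each), and -6.60 ± 0.36 for MSCs (SD, n = 4). The pooled value thus joined unlike regions, and the facial arrays (-6.43 to -6.10) overlapped the MSC arrays (-6.99 to -6.16). The regions were not tested apart for this pair. Rps4x itself, on the X chromosome, lay between 12.26 and 12.94 on all 13 arrays and differed by 0.01 (SE 0.09). The call of this pair was lost without MSC array 1, 3 or 4, with differences of 1.11, 0.94 and 1.03 and an exact permutation p, adjusted over the 3 pairs, of 0.0818 in each case. Rpl22l1 minus Rpl22 differed by -0.20 between SKPs and MSCs (exact permutation p = 0.414) and Rplp1 minus Rplp2 by -0.18 (exact permutation p = 0.294), and neither passed. The pooled value of the stalk pair joined unlike regions. Rplp1 minus Rplp2 was -0.10 ± 0.13 for ventral SKPs, against 0.44 ± 0.22 for dorsal and 0.43 ± 0.10 for facial SKPs (SD, n = 3 each) and 0.44 ± 0.03 for MSCs (SD, n = 4). The highest ventral array, at 0.04, lay below the lowest of the 10 others, at 0.23, and this split by region was not tested.

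Probe sets of one gene bear on these values, since ribosomal protein genes have many processed copies in the genome. Several probe sets carried the same symbol for 54 of the 71 genes (76.1%), against 3.63% of all genes, and Rpl21 had the most, 21. The 187 probe sets that were not used gave a difference within 0.2 of the one used for 184 between SKPs and MSCs and for 169 between ventral SKPs and MSCs. The median absolute difference of the 71 genes between SKPs and MSCs was 0.11, so 0.2 is a wide margin there. The sign was that of the set used for 168 and 162 of the 187 in these 2 comparisons. For Rps20 the 7 other sets ranged from -0.71 to -0.60 in the latter comparison, and for Rps19 the 4 others from -0.60 to -0.52. The other Rpl5 sets gave -0.21 and -0.21 there, against -0.44 for the one used. With the mean of the probe sets of a gene, the Rpl5 and Rps2 calls between ventral SKPs and MSCs were lost. So were those of Rpl5, Rpsa and Rps20 between dorsal and ventral SKPs, and that of Rps13 between facial SKPs and MSCs. Near-identical copies can share signal, so that a probe set may report more than 1 of them. Rps4y2 had 1 probe set.

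The start of the messages was read from RefSeq promoter sequences of the GRCr8 assembly, which matched 58 of the 71 genes. A tract was counted where a C is followed by at least 4 bases that are all C or T, on the coding strand only, with every C taken in turn so that tracts can overlap. The C stood at the annotated first base in 22 of 58 genes (37.9%), against 2.63% of 33465 promoters, and within 5 bases of it in 36 (62.1%), against 17%. By subunit these were 15 of 35 large and 7 of 23 small subunit genes. The following windows run from 10 bases before to 20 bases from the annotated first base. Shown are genes called in ventral SKPs and, as examples of a tract at the first base, Rplp1 and Rpl31, which were not. Capitals mark the tract nearest to the first base, and a window without capitals holds none within 5 bases.
Rpl10: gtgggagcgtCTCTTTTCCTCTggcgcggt
Rps4y2: cagctCTCCTCactcgcttgtgctctggga
Rps13: ttcctacctcgttCTCTCTTTgcttccaga
Rpl10a: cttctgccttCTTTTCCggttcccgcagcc
Rps19: cttgtgcgcccgggaaaccccgtcgttccc
Rps12: gaagcccagcagagcgcttaaataccgtca
Rpsa: ccgcgctaccctggaacgggtccgtacggc
Rplp1: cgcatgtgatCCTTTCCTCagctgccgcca
Rpl31: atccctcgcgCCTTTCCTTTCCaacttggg

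On GRCr8 these windows are chrX:157205840-157205869 (plus strand) for Rpl10, chr4:183000903-183000932 (plus) for Rps4y2, chr1:180009641-180009670 (minus) for Rps13, chr20:6390523-6390552 (plus) for Rpl10a, chr1:89608678-89608707 (plus) for Rps19, chr1:23500065-23500094 (plus) for Rps12, chr8:128728869-128728898 (plus) for Rpsa, chr8:71290853-71290882 (minus) for Rplp1 and chr9:49143101-49143130 (plus) for Rpl31. Rpl10, Rpl10a, Rplp1 and Rpl31 have the C at the first base, Rps4y2 and Rps13 close to it, and Rps19, Rps12 and Rpsa have no tract there. Of the genes lower in ventral SKPs than in MSCs, 1 of 10 with a promoter had the tract at the first base, as did 1 of the 2 higher and 20 of the 46 not called. That split was seen after the calls were known, and it carries no test. An annotated first base can lie beside the true start, and a missing tract says only that these letters are not in this window.

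**Figure D5:**
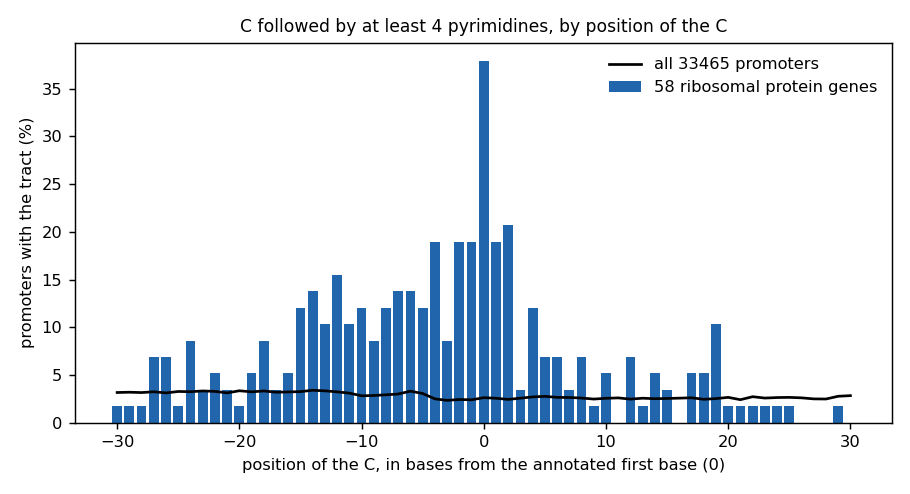
Share of promoters (%) in which a C followed by at least 4 pyrimidines stands at each position, in bases from the annotated first base (0), for 58 ribosomal protein genes (bars) and all 33465 promoters (line). The bars peak at the first base with 37.9%, where the line is at 2.63%.

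Ribosome biogenesis factors, which process ribosomal RNA and assemble the subunits, were mostly lower in SKPs where they were called. Of 63 measured genes in a list of 72, 19 fell (30.2%) and 1 rose (1.59%) between SKPs and MSCs, where 12.2% of all genes fell and 13.1% rose, with a median of -0.18 beside -0.02 over all genes. Among them, Tcof1, which supports transcription of ribosomal RNA, fell by 0.75 (adjusted p = 0.000237), and Sbds, which releases Eif6 from the large subunit, fell by 0.67 (adjusted p = 0.00289). Nhp2 (-0.87, adjusted p = 0.00632) and Rrp9 (-0.63, adjusted p = 0.00565), which belong to nucleolar particles that modify or cut ribosomal RNA, also fell. Nob1, the nuclease of the last small subunit cleavage, rose by 0.39 (adjusted p = 0.0231) and is named as the 1 that rose, after its value was seen. By region, 19 fell and 2 rose in ventral SKPs (30.2% and 3.17%, against 11.4% and 13% of all genes). In facial SKPs 13 fell (20.6%, against 9.58%), and in dorsal SKPs 2 fell (3.17%, against 7.76%) and 1 rose (1.59%, against 8.77%). In ventral SKPs Nhp2 was at -1.36 (adjusted p = 0.00202), Rrp9 at -1.17 (adjusted p = 0.000581) and Mrto4, which prepares the site of the stalk, at -1.05 (adjusted p = 0.000513). Cell cycle genes moved the same way: 17 of 18 fell in SKPs, with a median of -2.09, and their part in the difference of the biogenesis genes was not tested.

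Translation factors whose messages also start with a pyrimidine tract were called about as often as other genes. Of 19 measured, 2 rose and 3 fell between SKPs and MSCs (26.3%, against 25.3% of all genes), with a median of 0.02. Tpt1, which is among the most abundant of these messages, rose by 0.58 (adjusted p = 0.00205), as did Eif3h, an initiation factor subunit. Hnrnpa1 and Nap1l1 fell by 0.50 (adjusted p = 0.00194) and 0.52 (adjusted p = 0.0211). Eef1d, an exchange factor for elongation, fell by 0.66 (adjusted p = 0.00204), with 9.40, 9.60, 8.97 and 9.36 on the MSC arrays, 9.31, 8.71 and 8.90 on the dorsal, 8.63, 8.59 and 8.53 on the facial and 8.44, 8.52 and 8.38 on the ventral arrays. In ventral SKPs 3 of the 19 rose (15.8%) and 4 fell (21.1%), where 13% and 11.4% of all genes did. Of 16 regulators of ribosomal protein messages, Tia1, a protein that represses messages with such tracts under stress, rose by 0.63 in SKPs (adjusted p = 0.0006) and by 0.95 in ventral SKPs (adjusted p = 0.000226), and Max, the partner of Myc, rose by 0.36 in SKPs (adjusted p = 0.0164). The other 14 were not called between SKPs and MSCs, so that 12.5% of the list was called there.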

How the data were processed

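The deposited values are log2 expression values made by the authors with RMA (background correction, quantile normalisation and summary over probes) at gene-core level in Affymetrix Expression Console; per the submitters' processing notes limma was also used, and the sources used here do not give versions. They were used as deposited, and no column was left out. Array medians lay between 4.91 and 5.01. Such normalisation sets the arrays to a common distribution, so differences are relative to the other genes. The number of arrays limits the precision.

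Of 29215 probe sets, 15310 carried 1 gene symbol; 323 with several and 13582 without a name were left out. The probe set with the highest mean over the 13 arrays stood for a gene. Group means were fitted for 14506 genes with limma 3.58.1 in R 4.3.3 and 7 comparisons drawn, two-sided, with Benjamini-Hochberg adjustment over all genes; the fit was tested on simulated data. Background was the 25th percentile of group means. Exact permutation tests used scipy 1.17.1.

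Genes named by rule were the called members with the largest differences (10 per direction between SKPs and MSCs, 5 in other comparisons), the extremes of level and of SD, a set with known roles, and the 4 largest called genes of other lists. The other called members and those lying apart between groups were added after their values were seen. The members, lists and rule were chosen with earlier results of these data known.

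Same-numbered arrays of different groups did not deviate together (18 correlations from -0.12 to 0.20, of which 1 was over 0.1), so the numbers were not used as pairs.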

Additional observations from a re-analysis of the deposited data

Results flagged for a closer look

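In the 4 MSC arrays, 2 of the 30 values tested for an outlying array (28 named genes and the means of both subunits) had 1 sample far from the others by Dixon's criterion. Rps20 was lowest on MSC array 3, at 12.4011, while the others lay between 12.71 and 12.73 (ratio 0.95). Rps29 was also lowest on MSC array 3, at 12.3787, with the others between 12.47 and 12.48 (ratio 0.91). Chance alone flags about 1 in 20 groups, and groups of 3 were not tested. Array 3 was the lowest of the MSC arrays for 62 of the 71 genes, as given above. Without it, Rps20 kept its calls against MSCs for all SKPs, facial SKPs and ventral SKPs.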

How the results depend on the processing

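Each count of called genes was recomputed under 25 alternatives, of which 3 (centring on the mean of the 71 genes, and leaving out MSC arrays 1 and 2 or 3 and 4, which differ in level) were chosen after seeing the data. Of the recomputed counts, 103 stayed within 1.5 times, 23 gave more calls and 49 fewer; of the medians 310 stayed within the spread between arrays and 12 moved; of the pair differences 42 kept their side of the threshold and 3 lost the call. Of the values of named genes, 393 kept a call and 107 lost it, 562 stayed uncalled and 13 gained a call, and no called value reversed. The causes were not tested. Array weights gave 10 calls between SKPs and MSCs, 0 dorsal, 7 facial and 27 ventral against MSCs, 12 between dorsal and ventral and 11 between facial and ventral SKPs, and dorsal medians of -0.053 (large) and -0.045 (small). Repeated quantile normalisation gave 9, 2, 5, 24 and 14 for the first 5 of these. Of all genes, array weights called 27.1%, 15.7%, 22.5%, 33.0%, 10.5% and 16.8% in the same order, and repeated quantile normalisation 26.0%, 16.9%, 20.7%, 24.4% and 5.90%. The leukocyte covariate gave 0 for SKPs, 0 for dorsal and 0 for facial SKPs against MSCs and 1 for facial against ventral SKPs. It called 16.5%, 15.7%, 5.42% and 1.95% of all genes in these comparisons. Fitting the compared groups alone gave 0 (dorsal against MSCs), 0 (dorsal against ventral) and 13 (facial against ventral), with 8.62%, 2.57% and 13.3% of all genes called. The replicate number, which did not pair the arrays, gave as a block 0 facial and 7 ventral calls against MSCs, 1 between dorsal and ventral and 1 between facial and ventral SKPs. Centring on the family mean gave 0 facial calls against MSCs (15.3% of all genes called), medians of -0.064 and 0.055 (dorsal minus ventral) and of 0.022 and -0.040 (facial minus dorsal). Such medians lie near 0 by construction, since this centring removes the mean difference of the 71 genes. The mean of all probe sets gave 1 facial call against MSCs (19.2% of all genes called). Without dorsal and facial arrays 3 there were 10 calls for SKPs and 2 for dorsal SKPs against MSCs and 3 between dorsal and ventral SKPs, and medians of -0.036 (dorsal minus MSCs, small), 0.083 (dorsal minus ventral, large) and -0.042 (facial minus dorsal, large), and the Rps4y2 and Rps4x pair differed by 1.30. Without MSC arrays 1 and 2 there were 2 dorsal, 0 facial and 6 ventral calls (16.3%, 16.6% and 21.6% of all genes), and a facial small subunit median of 0.035. Without MSC arrays 3 and 4 there were 0 dorsal and 23 ventral calls (13.5% and 21.5% of all genes). Leaving out 1 array gave 2 to 11 calls for SKPs, 0 to 9 for dorsal, 0 to 3 for facial and 7 to 23 for ventral SKPs against MSCs, 1 to 20 between dorsal and ventral, 0 to 5 between facial and ventral and 0 to 3 between facial and dorsal SKPs. The medians then ran from -0.034 to 0.26 (large) and -0.036 to 0.28 (small) for dorsal minus MSCs, from 0.08 to 0.33 (large) for dorsal minus ventral and from -0.34 to -0.038 (large) for facial minus dorsal, and the Rps4y2 and Rps4x pair from 0.94 to 1.22.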
